A study of Homo sapiens with 9 samples.

Results

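The caspases and BCL2 family genes that set or carry out apoptosis were examined for YY1 occupancy. The set held 8 genes, namely CASP8, CASP9, APAF1, BCL2, BCL2L1, BCL2L11, BAX and MCL1, and every peak whose nearest gene was annotated as 1 of these was taken at any distance from the transcription start site (TSS). This gave 10 peaks of the 23002 in the table, for 7 of the 8 genes, and none for CASP8. YY1 was profiled by chromatin immunoprecipitation and sequencing (ChIP-seq) in SK-N-MC cells, a wild-type human line that the labels describe as neuroblastoma, after plasmid transfection with Lipofectamine 2000. One group overexpressed Htt1-550Q23, residues 1 to 550 of huntingtin with 23 glutamines (HttQ23), and the other overexpressed Htt1-550Q89, the same fragment with 89 glutamines (HttQ89), with 3 biological replicates in each group. Both groups carried an overexpressed huntingtin fragment on top of the endogenous protein, and no untransfected cells entered the comparison. The comparison asked whether the expanded huntingtin changed the binding of YY1 to its DNA targets. The paper's reporting summary notes that a register of misidentified lines holds SK-N-MC as sarcoma. It also states a neurogenic origin for the stock that was used. A ChIP library does not measure transcripts, so the cell line was not checked against marker expression.

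Apoptosis in vertebrate cells is set by the balance of the BCL2 family at the mitochondrial outer membrane. Effectors such as BAX open that membrane, guardians such as BCL2, BCL2L1 (BCL-XL) and MCL1 hold the effectors back, and BH3-only proteins such as BCL2L11 (BIM) bind the guardians. Cytochrome c released from mitochondria assembles with APAF1 into the apoptosome, which activates caspase 9, whereas caspase 8 is activated at death receptors. YY1 is a zinc finger transcription factor that binds near the TSS of many genes through a core motif written ATGGCG, often within the longer AAGATGGCG.

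The sequences under the peaks differed in what they held of this motif. The strongest peak, at BAX, held no ATGGCG on either strand. It held 1 copy of GCCATNTT, which is the shorter inverted form of the YY1 site and overlaps any inverted AAGATGGCG, at chr19:48954812-48954819 (GRCh38, plus strand). This copy started 63 bp upstream of the TSS and 1 bp from the centre of the peak. The BAX promoter from the RefSeq tables (GRCh38.p14, the 250 bases before the TSS, chr19:48954625-48954874, plus strand) is shown with the GCCATNTT match in capitals.
BAX promoter: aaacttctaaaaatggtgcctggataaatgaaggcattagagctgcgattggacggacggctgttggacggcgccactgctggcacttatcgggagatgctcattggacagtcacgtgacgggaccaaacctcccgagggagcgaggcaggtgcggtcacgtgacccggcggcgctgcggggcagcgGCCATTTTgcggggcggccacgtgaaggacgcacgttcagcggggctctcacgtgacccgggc
The same 300-base BAX promoter table entry and the BAX peak each held 4 copies of CACGTG, the palindromic E-box, which 9.59% of tested peaks and 7.26% of 35116 RefSeq promoters held. GCCATNTT on either strand was present in 12.1% of 14697 tested peaks and in 6.58% of RefSeq promoters. A copy starting within 10 bp of the peak centre, as at BAX, was present in 0.891% of tested peaks (131 peaks), and these had a median value of 151 against 66.6 over all tested peaks. An ATGGCG started within 10 bp of the centre in 330 tested peaks, whose median value was 78.8. GCCATNTT was added after the sequences were read, so these shares describe the BAX peak and do not test it. The share of central matches that random placement would give was not computed.

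ATGGCG on either strand was present in 32.3% of tested peaks and in 4 of the 10 member peaks. AAGATGGCG was in 4.42% of tested peaks and in none of the member peaks. The matches at CASP9 and BCL2 are shown in windows of 30 bases from GRCh38, written in the direction that reads ATGGCG, with the match in capitals.
CASP9 promoter peak: tccgcttcgtccATGGCGagtagccaacta
BCL2 downstream peak: cctctgggaaggATGGCGcacgctgggaga
BCL2 upstream peak: cgccgggggcacATGGCGcgcggggccgcg
The CASP9 match, at chr1:15524199-15524204 on the plus strand and so antisense to the gene, started 6 bp from the peak centre and overlapped the start codon. An ATGGCG started within 10 bp of the centre in 2.25% of tested peaks. That window is a small part of a 401 bp peak, and the share that random placement would give was not computed. The BCL2 downstream match, at chr18:63318661-63318666 on the minus strand, ran with the gene and its first letters were the BCL2 start codon. It lay 148 bp from the peak centre, and the match in the upstream BCL2 peak, at chr18:63320351-63320356 on the plus strand, lay 180 bp from its centre.

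The promoter peaks of BCL2L11, MCL1 and BCL2L1, which were among the stronger member peaks, held none of ATGGCG, AAGATGGCG and GCCATNTT. A pair of promoters without these motifs is shown for comparison with BAX. The BCL2L11 promoter (RefSeq, chr2:111120664-111120913, plus strand) lay under the second strongest member peak. The APAF1 promoter (RefSeq, chr12:98645040-98645289, plus strand) lay largely under a peak annotated to its neighbour IKBIP (chr12:98644855-98645255). A CASP8 promoter (RefSeq, chr2:201260286-201260535, plus strand) is shown because it held 1 GCCATNTT match, read here on the other strand and in capitals, while no peak of the table was annotated to CASP8. The other RefSeq CASP8 promoters, at chr2:201233213-201233462 and chr2:201257785-201258034, held neither GCCATNTT nor ATGGCG.
BCL2L11 promoter: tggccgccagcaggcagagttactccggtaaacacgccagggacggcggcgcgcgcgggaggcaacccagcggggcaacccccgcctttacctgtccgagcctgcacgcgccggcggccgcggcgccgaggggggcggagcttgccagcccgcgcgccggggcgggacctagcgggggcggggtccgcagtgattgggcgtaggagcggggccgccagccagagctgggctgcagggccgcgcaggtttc
APAF1 promoter: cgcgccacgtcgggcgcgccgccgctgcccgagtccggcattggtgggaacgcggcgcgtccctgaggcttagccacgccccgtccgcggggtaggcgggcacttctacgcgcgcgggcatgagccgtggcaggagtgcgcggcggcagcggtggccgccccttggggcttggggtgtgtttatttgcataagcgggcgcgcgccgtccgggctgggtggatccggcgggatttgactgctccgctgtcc
CASP8 promoter: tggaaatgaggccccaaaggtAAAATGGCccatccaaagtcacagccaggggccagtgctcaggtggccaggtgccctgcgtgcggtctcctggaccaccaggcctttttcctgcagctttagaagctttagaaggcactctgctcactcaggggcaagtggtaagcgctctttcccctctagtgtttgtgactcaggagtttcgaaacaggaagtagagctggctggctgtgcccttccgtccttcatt
Such matches describe letters only. GC content was 69.8% in the BAX peak, 76.1% in the BCL2L11 promoter peak, 64.6% in the MCL1 promoter peak and 74.3% in the CASP9 peak, against a median of 71.1% over tested peaks.

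Values are normalised read counts per peak, which the authors scaled to sequencing depth. A log2 fold change is the HttQ89 mean less the HttQ23 mean of log2(value + 1), so a negative one stands for a lower value in HttQ89. Peaks above 0 in all 6 libraries were tested, which kept 14698 of 23002 peaks and 7 of the 10 member peaks. The libraries were alike in depth, with relative depths between 0.924 and 1.12, but they differed in how many reads fell in peaks, from 927910 in HttQ89 replicate 1 to 2344649 in HttQ89 replicate 3. HttQ89 replicate 1 also had the largest share of peaks at 0, 22.5% against 2.99% to 8.82% in the other libraries. Member peaks moved with these library differences, as given further on, and the part of immunoprecipitation yield in the results was not tested.

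The 7 tested member peaks spanned a 35.6-fold range of mean signal over the 6 libraries. BAX stood first with a mean of 720, followed by the BCL2L11 promoter at 257, the MCL1 promoter at 237, the BCL2L1 promoter at 159.8, the CASP9 promoter at 63.5, the upstream BCL2 peak at 35.8 and the downstream BCL2 peak at 20.2. Of these, 4 lay above the median tested peak, at 66.6. Within this order the ranges of every pair of neighbours overlapped. The higher peak of each pair exceeded the lower one in 6 of 6 libraries for BAX over BCL2L11, MCL1 over BCL2L1 and BCL2L1 over CASP9, in 5 of 6 for BCL2L11 over MCL1 and for CASP9 over the upstream BCL2 peak, and in 4 of 6 for the pair of BCL2 peaks.

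**Figure D1:**
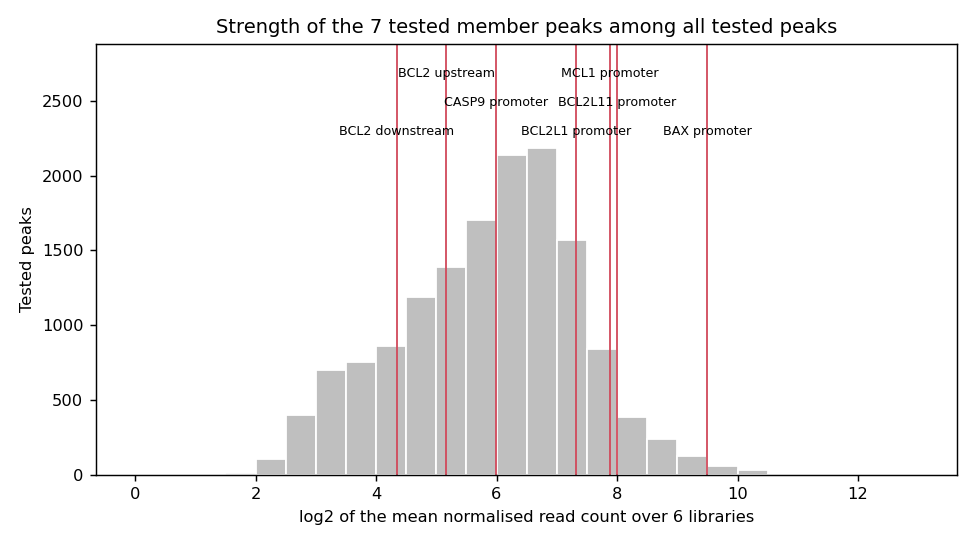
Histogram of the mean normalised read count over 6 libraries (log2, x axis) of the 14698 tested peaks, with the number of peaks on the y axis and a vertical line for each of the 7 tested member peaks. BAX, at a mean of 720, lies in the right tail, and both BCL2 peaks, at 35.8 and 20.2, lie below the median of 66.6.

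BAX, the effector that permeabilises the mitochondrial outer membrane, carried 1 of the strongest YY1 peaks of the table. The peak (ENSG00000087088, chr19:48954611-48955011) spanned the TSS and overlapped coding sequence, and it ranked 107 among tested peaks, above 99.3% of them. The HttQ23 libraries stood at 1009.7, 462 and 1055 and the HttQ89 libraries at 526, 347 and 923, each in the order of replicates 1 to 3, which holds for all values given this way. The groups overlapped, because HttQ23 replicate 2 was lower than 2 of the HttQ89 libraries. The HttQ23 mean was 842 ± 330 and the HttQ89 mean 599 ± 295 (SD, n = 3 each). The log2 fold change was -0.51 (SE 0.53, 95% interval -1.56 to 0.53), with an adjusted p of 0.818 by limma and an exact two-sided permutation p of 0.4, and it was 0.022 after median centring, -0.019 with TMM and -0.034 with DESeq2. These values rested on 351 to 1205 reads per library, so that counting error was small beside the spread between replicates.

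BCL2L11, which encodes the BH3-only protein BIM, carried 2 peaks. The promoter peak (ENSG00000153094, chr2:111120517-111120917) ended just past the canonical TSS and ranked 849 among tested peaks. The HttQ23 libraries stood at 301, 252 and 292 and the HttQ89 libraries at 106, 187 and 405. The HttQ23 libraries lay close together, with a coefficient of variation of 9.38%, whereas the HttQ89 libraries lay on both sides of them, with a coefficient of variation of 66.6%. The means were 282 ± 26.4 and 233 ± 155 (SD, n = 3 each), and the log2 fold change was -0.49 (SE 0.55, 95% interval -1.56 to 0.59, limma adjusted p = 0.818). The exact permutation p was 0.5, and the log2 fold change was 0.052, 0.0082 and 0.054 after median centring, with TMM and with DESeq2, and -0.029 without HttQ89 replicate 1. The other BCL2L11 peak, at chr2:111117704-111118104 and 1274 bp upstream of the nearest annotated TSS, was at 0 in replicate 1 of both groups and was not tested. A count of 0 allowed a value of up to 3.18 in HttQ23 replicate 1 and up to 3.09 in HttQ89 replicate 1. The other libraries stood at 42.5 and 42.9 (HttQ23) and at 26.7 and 23.5 (HttQ89), so that replicates 2 and 3 had a peak where replicate 1 of either group had no read.

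MCL1, a short-lived anti-apoptotic guardian, had its promoter peak at chr1:150579299-150579699 (ENSG00000143384), over the TSS and the start of the coding sequence. The HttQ23 libraries stood at 294, 199 and 255 and the HttQ89 libraries at 139, 166 and 367. HttQ89 replicates 1 and 2 were below every HttQ23 library, and HttQ89 replicate 3 was above all of them. The means were 249 ± 47.9 and 224 ± 125 (SD, n = 3 each), and the log2 fold change of -0.27 (SE 0.55, 95% interval -1.35 to 0.81) had a limma adjusted p of 0.863 and an exact permutation p of 0.7. This direction did not hold under other scalings, with a log2 fold change of 0.27 after median centring, 0.23 with TMM and 0.24 with DESeq2, nor without HttQ89 replicate 1, where it was 0.007. A weak intergenic peak, 8354 bp upstream of the nearest MCL1 TSS (chr1:150588092-150588492), was not tested. It was at 0 in HttQ89 replicate 2, where up to 2.96 was possible, and ranged from 4.25 to 23.3 in the other libraries.

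BCL2L1, whose long product BCL-XL is a guardian, had 1 peak at chr20:31723589-31723989 (ENSG00000171552). This peak was centred 921 bp upstream of the canonical TSS and covered the TSS of a longer transcript, in an exon outside the coding sequence. The HttQ23 libraries stood at 193, 128.5 and 237 and the HttQ89 libraries at 43.2, 76.1 and 281, so that HttQ89 replicates 1 and 2 were the lowest libraries and HttQ89 replicate 3 was the highest. The spread among the HttQ89 libraries (133 ± 129, SD, n = 3) was nearly as large as their mean, against 186 ± 54.7 in HttQ23. The log2 fold change was -0.88 (SE 0.59, 95% interval -2.03 to 0.27, limma adjusted p = 0.818, exact permutation p = 0.4). The value turned on single HttQ89 libraries. It was -0.30 without HttQ89 replicate 1, and -0.34, -0.39 and -0.28 after median centring, with TMM and with DESeq2. Without HttQ89 replicate 3 the log2 fold change was -1.64 (SE 0.46) and the limma adjusted p was 0.0487, and 514 peaks of the table were called in that fit against 0 with all libraries.

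BCL2, the founding guardian of the family, had 2 peaks (ENSG00000171791) on either side of its canonical TSS. The upstream peak (chr18:63319971-63320371) was centred 402 bp before that TSS, in an exon of a longer transcript, and the downstream peak (chr18:63318313-63318713) was centred 1256 bp after it and held the start codon. At the downstream peak the HttQ23 libraries stood at 31.8, 27.6 and 24.5 and the HttQ89 libraries at 1.03, 13.8 and 22.6. All 3 HttQ89 libraries were below all 3 HttQ23 libraries, and the value in HttQ89 replicate 1 came from 1 read (95% exact Poisson interval 0.0253 to 5.57 reads, for counting error only). The HttQ23 mean was 28.0 ± 3.66 and the HttQ89 mean 12.5 ± 10.9 (SD, n = 3 each), a ratio of 2.24. The log2 fold change was -1.69 (SE 0.86, 95% interval -3.37 to -0.01), with an unadjusted limma p of 0.0484, an adjusted p of 0.818 and an exact permutation p of 0.1, the smallest that 3 against 3 libraries can give. The unadjusted p did not stay under 0.05 with no filter, with a pseudocount of 5, under other scalings, or with edgeR or DESeq2 on the reads. The log2 fold change was -0.62 without HttQ89 replicate 1, and -1.15, -1.31 and -0.86 after median centring, with TMM and with DESeq2.

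At the upstream BCL2 peak the HttQ23 libraries stood at 24.4, 38.2 and 17.5 and the HttQ89 libraries at 76.2, 29.6 and 29.0. Here HttQ89 replicate 1 was the highest library, with 74 reads, which held for 3.10% of tested peaks. The groups overlapped, the means were 26.7 ± 10.6 and 44.9 ± 27.1 (SD, n = 3 each), and the log2 fold change was 0.65 (SE 0.80, 95% interval -0.92 to 2.22, limma adjusted p = 0.823, exact permutation p = 0.4). It was 0.20 without HttQ89 replicate 1 and 0.39 without HttQ23 replicate 3, and 1.18, 1.13 and 1.44 after median centring, with TMM and with DESeq2. The upstream value divided by the downstream value was 0.766, 1.38 and 0.714 for the HttQ23 libraries and 74.0, 2.14 and 1.28 for the HttQ89 libraries. This ratio was picked after the values were seen and was given no test, and its highest value rests on the single read of the downstream peak.

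CASP9, the initiator caspase of the apoptosome, had 1 peak (ENSG00000132906, chr1:15524005-15524405) centred 10 bp from its TSS. The HttQ23 libraries stood at 71.1, 56.3 and 47.3 and the HttQ89 libraries at 34.0, 51.4 and 121. The highest and the lowest library were both HttQ89, and the means were 58.2 ± 12.0 and 68.9 ± 46.2 (SD, n = 3 each). The log2 fold change of 0.06 (SE 0.70, 95% interval -1.32 to 1.43) had a limma adjusted p of 0.979 and an exact permutation p of 0.9. After median centring, with TMM and with DESeq2 it was 0.593, 0.542 and 0.585. Its sign depended on single libraries, with -0.45 without HttQ89 replicate 3 and -0.08 without HttQ23 replicate 3. The neighbouring DNAJC16 promoter peak lay 258 bp upstream of an alternative CASP9 start, and HttQ89 replicate 1 was its lowest library. At that peak the HttQ23 libraries stood at 79.5, 58.4 and 56.0 and the HttQ89 libraries at 9.27, 34.6 and 67.0, with a log2 fold change of -1.15 (SE 0.76, limma adjusted p = 0.818, exact permutation p = 0.3).

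APAF1, the scaffold of the apoptosome, had no promoter peak under its own name. The only peak annotated to it was in intron 14 of 26 (chr12:98681975-98682375), where both replicate 1 libraries were at 0 and the others were between 3.50 and 19.1, so it was not tested. APAF1 shares a promoter region with IKBIP, which starts 502 bp away on the opposite strand, and a peak annotated to IKBIP (chr12:98644855-98645255) ended 35 bp upstream of the APAF1 TSS. At this peak the HttQ23 libraries stood at 181, 140.2 and 241 and the HttQ89 libraries at 40.1, 117 and 308. HttQ89 replicates 1 and 2 were below every HttQ23 library and HttQ89 replicate 3 was above them, as at the BCL2L11, MCL1 and BCL2L1 promoters. The log2 fold change was -0.69 (SE 0.58, 95% interval -1.82 to 0.45, limma adjusted p = 0.818, exact permutation p = 0.6), and it was 0.05 without HttQ89 replicate 1.

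CASP8, the initiator caspase of the death receptors, had no peak annotated to it in the table. The nearest peak to its canonical TSS was 97.9 kb away, within the span of the CASP8 gene, and was annotated to FLACC1. That peak was weak, with values of 15.9, 7.43 and 2.63 in HttQ23 and of 0, 1.98 and 11.8 in HttQ89. The next, 143.8 kb away, was the promoter peak of CFLAR, which encodes the caspase 8 regulator c-FLIP.

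**Figure D2:**
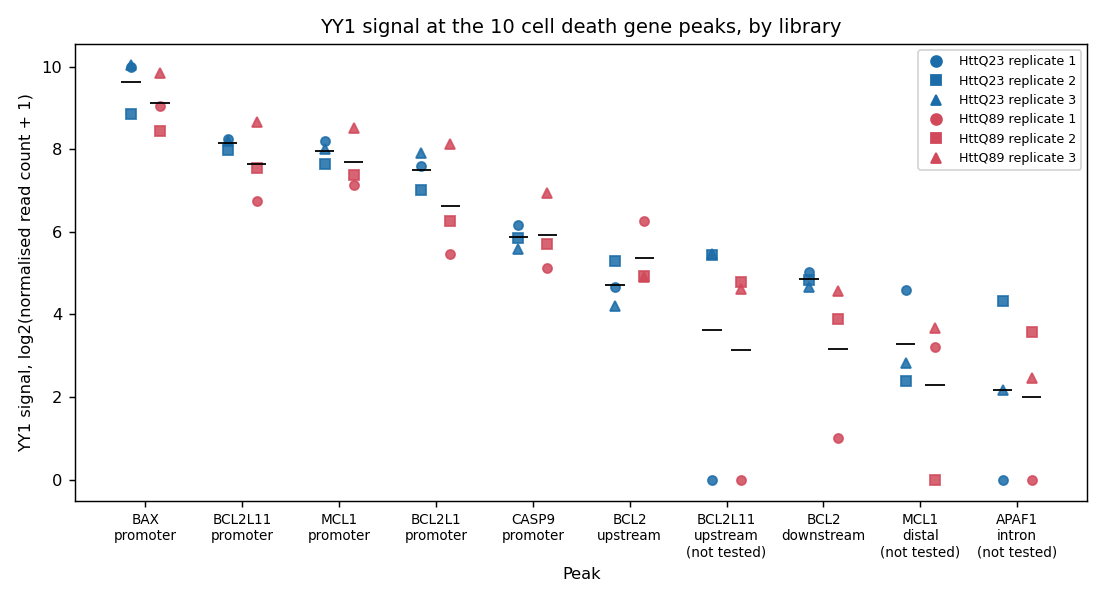
YY1 signal, log2(normalised read count + 1), on the y axis at each of the 10 member peaks on the x axis, with 1 point per library (HttQ23 blue, HttQ89 red, symbols by replicate) and a bar at the mean of the log2 values of each group. HttQ89 replicate 3 is the highest library at 4 of the 7 tested peaks and HttQ89 replicate 1 the lowest at 5, and only at the downstream BCL2 peak do the groups not overlap.

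Across the 7 tested member peaks, none passed the adjusted test in either direction. Of these, 5 had a negative and 2 a positive log2 fold change, beside 82.8% negative over all tested peaks. Their median was -0.49, against -0.50 over all tested peaks. Scalings on the peaks removed this shared shift, with a median over all tested peaks of 0.040 after median centring, -0.014 with TMM and 0.016 with DESeq2. The member median was then 0.052, 0.0082 and 0.054, with 2, 3 and 3 of 7 negative. By design these scalings set the middle of the table near 0, so they would also remove a real change shared by most peaks. The paper reported less soluble YY1 protein in HttQ89 cells, and which scaling suits these libraries was not tested. After adjustment 0 of 7 member peaks were called by limma, as were 0 by edgeR and 0 by DESeq2 on recovered reads. The background was 0.0% of the 14698 peaks with each method, and the lowest limma adjusted p of any peak was 0.699. At an unadjusted limma p under 0.05, 1 of 7 was lower (downstream BCL2), beside 4.02% of tested peaks (591), and 0 were higher, beside 0.204% (30). Over all tested peaks this split turned to 94 lower and 182 higher after median centring of the libraries. Groups that did not overlap were found at 1 of 7 member peaks with HttQ89 lower, beside 4.27% of tested peaks, and at 0 with HttQ89 higher, beside 0.537%.

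The member peaks followed the whole library in each HttQ89 replicate. In HttQ89 replicate 1 their median log2 difference from the HttQ23 mean was -0.82, with 6 of 7 negative, against a median of -0.89 over all tested peaks. In replicate 2 it was -0.59, with 6 of 7 negative, against -0.71. In replicate 3 it was 0.53, with 1 of 7 negative, against 0.27. HttQ89 replicate 1 was the lowest of the 6 libraries at 5 of 7 member peaks and at 48.2% of tested peaks, HttQ89 replicate 2 was the lowest at 1 of 7 and at 29.9%, and HttQ89 replicate 3 was the highest at 4 of 7 and at 30.9%.

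**Figure D3:**
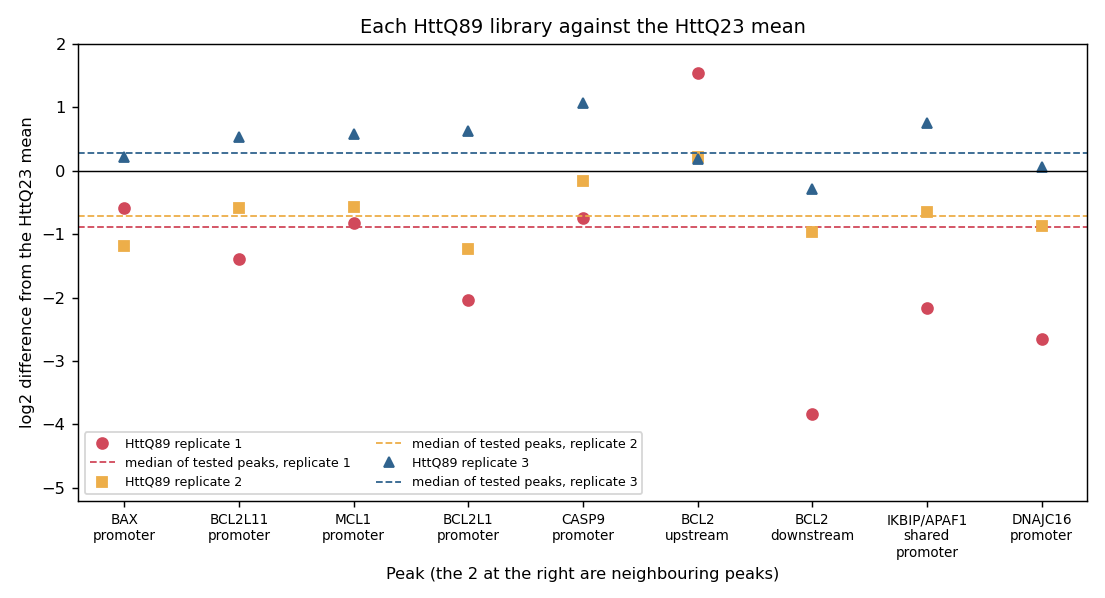
log2 difference of each HttQ89 library from the HttQ23 mean (y axis) at the 7 tested member peaks and the 2 neighbouring peaks (x axis), with dashed lines at the median of all tested peaks, -0.89, -0.71 and 0.27 for replicates 1 to 3. Replicate 3 lies above 0 at 6 of the 7 member peaks, and replicate 1 is far above its line only at the upstream BCL2 peak.

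Each member was also set against the median tested peak of the same library. For BAX the HttQ23 libraries were 11.9, 7.25 and 14.5 times their median tested peak and the HttQ89 libraries 16.5, 7.98 and 10.2 times, with overlapping groups. The BCL2L11 promoter gave 3.55, 3.95 and 4.02 for HttQ23 against 3.32, 4.30 and 4.48 for HttQ89, a much narrower spread than its normalised counts had. The MCL1 promoter gave 3.46, 3.12 and 3.51 for HttQ23 against 4.35, 3.82 and 4.06 for HttQ89. CASP9 gave 0.837, 0.883 and 0.651 for HttQ23 against 1.06, 1.18 and 1.34 for HttQ89. At the MCL1 and CASP9 promoters all HttQ89 libraries were above all HttQ23 libraries on this scale. That made 2 of 7 member peaks higher without overlap, beside 3.02% of tested peaks, and 1 of 7 lower, beside 3.25%. The lower one was the downstream BCL2 peak, with 0.375, 0.433 and 0.337 for HttQ23 against 0.0323, 0.318 and 0.250 for HttQ89. BCL2L1 gave 2.27, 2.02 and 3.27 for HttQ23 against 1.35, 1.75 and 3.10 for HttQ89, which overlapped. No member peak passed the adjusted test on this scale either, and the lowest adjusted p of a member over the alternatives that kept all libraries was 0.756.

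The wider apoptosis machinery was read from a list of 66 other genes. Of these, 46 had a peak and 35 had a tested promoter peak within 2 kb of a TSS, among them 7 of 7 BH3-only genes, 8 of 17 death receptor and adaptor genes, 6 of 9 genes of mitochondrial release and the apoptosome, 4 of 7 inhibitors of apoptosis and 3 of 9 further caspases. In the rest of the BCL2 family, 0 of 3 anti-apoptotic genes, 0 of 2 effectors and 1 of 4 other genes had such a peak. These counts leave out the members BCL2, BCL2L1, MCL1, BAX and BCL2L11, each of which had a tested promoter peak. Such a peak was present at 4 of 5 p53 input genes and 2 of 3 caspase substrate and nuclease genes. The share over all genes was not computed, so the counts by role show no preference of YY1 for a role. Of the 35 promoter peaks, 34 had a negative log2 fold change and 1 a positive one, with a median of -0.44 against -0.51 over 11802 tested promoter peaks. Over all tested peaks, 82.8% were negative, but these include peaks outside promoters. The negative share over promoter peaks alone, or over peaks of like strength, was not computed. None passed the adjusted limma test (lowest adjusted p 0.818), 1 of 35 was lower at an unadjusted p under 0.05, beside 4.02% of all tested peaks, and the groups overlapped at all 35, where 4.27% of all tested peaks were lower without overlap. The median was -0.69 for 4 p53 input genes, -0.51 for 8 death receptor and adaptor genes, -0.44 for the 7 BH3-only genes and -0.42 for the 3 caspases. For the other roles it was -0.60 (2 caspase substrate and nuclease genes), -0.54 (4 inhibitors of apoptosis) and -0.47 (6 genes of mitochondrial release and the apoptosome). The 1 other BCL2 family gene stood at -0.31. The list median became 0.10 after median centring, and 0.03 with TMM or DESeq2, and 15 of the 35 were negative under each of these scalings.

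The strongest of these promoters were those of HTRA2, DIABLO and VDAC2. HTRA2 and DIABLO encode mitochondrial proteins that antagonise inhibitors of apoptosis once released, and VDAC2 encodes an outer membrane channel. At HTRA2 the HttQ23 libraries stood at 469, 230.5 and 547 and the HttQ89 libraries at 361, 218 and 524. At DIABLO they were 471, 222 and 540.2 against 289, 119 and 479, and at VDAC2 477, 251 and 334 against 197, 193 and 395. In all of them the groups overlapped, and the log2 fold changes were -0.17, -0.59 and -0.47, of which HTRA2 and VDAC2 turned to 0.37 and 0.067 after median centring. The lowest p among lower peaks belonged to BNIP3, a mitochondrial protein of the BH3 type that the list carried under p53 input. At BNIP3 the HttQ23 libraries stood at 265, 169.9 and 141 and the HttQ89 libraries at 7.21, 79.1 and 167. Its log2 fold change was -1.96 (SE 0.63, unadjusted limma p = 0.0018, limma adjusted p = 0.818, exact permutation p = 0.2), with groups that overlapped through HttQ89 replicate 3, and without that library it was -2.86 with a limma adjusted p of 0.0359. Without HttQ89 replicate 1 it was -0.68, and with DESeq2 on all libraries it was -0.94. VDAC3 at -1.13 and TRADD, an adaptor of death receptor signalling, at -1.32 came next and did not pass. The only positive value was at CYCS, which encodes cytochrome c, with 8.49, 30.8 and 21.0 for HttQ23, 13.4, 29.6 and 31.7 for HttQ89 and a log2 fold change of 0.37 (SE 0.84). The library profiles most like the mean of the members' promoter peaks were those of CASP6, PARP1 and BIRC6, with root mean square differences of 0.197, 0.210 and 0.225 on the log2 scale over 6 libraries. That mean was -0.67, -0.59 and 0.54 in HttQ89 replicates 1 to 3, beside medians of -0.89, -0.71 and 0.27 over all tested peaks. How many of all tested peaks were as alike was not computed, so the likeness does not link these genes to the members.

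**Figure D4:**
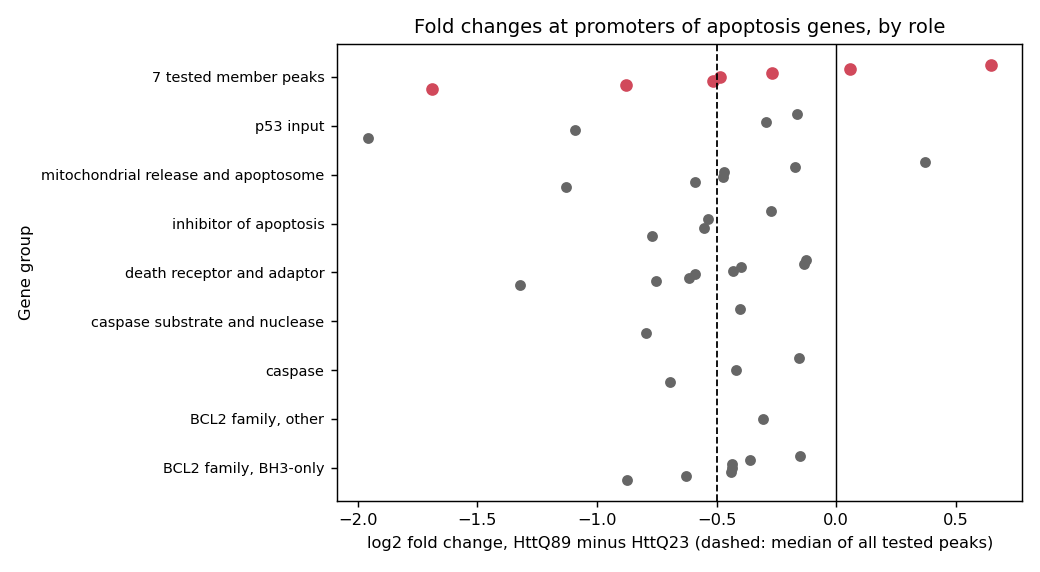
log2 fold change, HttQ89 minus HttQ23 (x axis), at the strongest tested promoter peak of each of the 35 apoptosis list genes, grouped by role (y axis, grey), and at the 7 tested member peaks (red), with a dashed line at the median of all tested peaks, -0.50. On the scaling of the authors all grey points but CYCS, at 0.37, lie below 0, where median centring leaves 15 of 35 below 0, and the member peaks run from -1.69 to 0.65.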

How the data were processed

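YY1 ChIP-seq libraries of SK-N-MC cells were compared, 3 from HttQ23 and 3 from HttQ89 cells, and the 3 input libraries entered no comparison. According to the study's methods and the processing notes of the submitters, the authors trimmed paired reads of 150 nt with cutadapt 3.7, mapped them with Bowtie2 2.4.1 (GRCh38.p14), called peaks with MACS3 3.0.1 against input and annotated them with ChIPseeker 1.38.0. The sources used here do not give whether peaks came from single or pooled libraries. The deposited signal is the number of reads in each peak, which the authors normalised to sequencing depth in DiffBind. Such scaling keeps differences between libraries in immunoprecipitation yield. In each library 100% of values were whole multiples of 1 step within 0.1 reads, so reads were recovered and total 927910 to 2344649 per library. edgeR and DESeq2 on these reads each called 0 peaks.

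Peaks above 0 in all 6 libraries were tested (63.9%). limma 3.58.1 (R 4.3.3, lmFit and trended eBayes, two-sided) was run on log2(value + 1), and p-values were adjusted by Benjamini-Hochberg over the 14698 peaks (threshold 0.05). The log2(value + 1) scale understates changes of weak peaks. The limma standard errors followed the trend with peak strength, not the spread of a single peak. Exact two-sided permutation tests compared 3 with 3 libraries (smallest p 0.1). The p-values speak only of the spread among these 6 libraries, and intervals from reads cover counting error only. The pipeline was also run on simulated counts. These held no differences between libraries in the share of reads in peaks, so that run cannot speak to such differences. All 23002 distances to the TSS matched GENCODE v44 within 1 bp. Motifs were searched on both strands of GRCh38 under each peak, and promoter sequences are from RefSeq (GRCh38.p14). The members and lists were chosen with earlier results of these data known, and GCCATNTT and CACGTG were added after the sequences were read. Some items are not reported here. Every tested member peak was described by library, and list genes were named by strength, by lowest p per direction and by likeness to the members. Alternatives were no filter, a mean of at least 20, a pseudocount of 5, median centring, TMM, edgeR 4.0.16, DESeq2 1.42.0, the replicate number as a block, and each library left out.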

Additional observations from a re-analysis of the deposited data

How the results depend on the processing

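The call of 0 member peaks held under every alternative that kept all libraries, and 1 of 7 (BCL2L1, -1.64) was called without HttQ89 replicate 3 (range 0 to 1 over the left-out libraries). With that library out, 514 peaks of the table (range 0 to 514) and 1 list peak (BNIP3, range 0 to 1) were called. Median centring, TMM and DESeq2 set the median of the table near 0 and turned the sign of the member median from -0.49 to 0.052, 0.0082 and 0.054, and of the list median to 0.096, 0.028 and 0.029. The same settings, in that order, turned BCL2L11 (0.052, 0.0082, 0.054), MCL1 (0.27, 0.23, 0.24), HTRA2 (0.37, 0.32, 0.32), PARP1 (0.13, 0.091, 0.076), CASP6 (0.12, 0.070, 0.090) and VDAC2 (0.067, 0.024, 0.021), and centring turned BAX (0.022). Member peaks higher without overlap numbered 2 with centring and 2 with TMM, and 0 to 1 over the left-out libraries. Those lower without overlap numbered 1 to 4, with 4 without HttQ89 replicate 3 and 2 without HttQ23 replicate 2. The share over all tested peaks was not computed for TMM or the left-out libraries, so these counts describe no trait of the members. Groups also separate more easily with a library left out. Without HttQ89 replicate 3, 4516 tested peaks were lower at an unadjusted limma p under 0.05, against 591 with all libraries. Leaving out libraries gave -0.88 to -0.029 for the member median, and turned MCL1 (-0.69 to 0.0069), CASP9 (-0.45 to 0.45, also -0.081), the peak shared by IKBIP and APAF1 (-1.40 to 0.051), HTRA2 (-0.55 to 0.16, also 0.073) and CYCS (-0.12 to 0.75). The cause of these turns was not tested.

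Whether the replicate numbers pair the libraries was not settled. Deviations of same-numbered libraries correlated at 0.041, 0.386 and 0.146 over peaks, and those of other pairs at -0.290 to 0.129. HttQ89 replicates 2 and 3 correlated best with the HttQ23 library of the same number. HttQ89 replicate 1 correlated best with HttQ23 replicate 3 (0.129). With the replicate number as a block, 1 peak of the table was called and 0 member peaks. In the downstream BCL2 peak and the untested peaks, single reads limit what can be compared.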
